A study of Mus musculus with 62 samples.

Results

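The adhesion genes described here are the cadherins and protocadherins, measured in mouse brain in the prefrontal cortex (PFC) and in the nucleus accumbens (NAc). Members were all genes of the count data whose mouse symbol starts with Cdh and a digit or with Pcdh, which gave 36 of 11121 genes. The GENCODE annotation of GRCm38 holds 93 genes with such symbols, and the other 57 were not analysed here. All mice were wild-type C57BL/6j males, 15 weeks old by the labels. The 4 groups were PFC of unstressed controls (CTR, n = 15), PFC after multimodal chronic restraint stress (mCRS, n = 15), NAc of CTR (n = 16) and NAc of mCRS mice (n = 16). In the mCRS protocol mice are restrained daily under changing conditions of light, sound, odor and movement, and tissue was taken some days after the last session. Each library came from a piece of bulk tissue of a hemisphere, with mice housed in shared cages, and which PFC and NAc libraries came from the same mouse is not given in the sources used here. RNA was measured by BRB-seq, in which oligo-dT primers carrying a sample barcode are used and reads come mostly from the 3′ ends of transcripts.

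Cadherins hold cells together through repeated extracellular domains that bind the same or a related cadherin on the neighboring cell when calcium is present. Classical cadherins of types I and II connect through catenins to the actin cytoskeleton. The unclustered protocadherins of the delta-1 and delta-2 groups have other cytoplasmic tails, and several delta-2 members bind the WAVE complex, which drives actin branching. The clustered protocadherins are made from arrays of variable exons, each with its own promoter, and neurons use different combinations of them as a surface identity. In the forebrain these genes are known for patterned expression by region and layer and for roles in axon growth and synapse choice.

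By class, 2 of 5 type I cadherins (Cdh2, Cdh4), 11 of 13 type II cadherins (Cdh5 to Cdh12, Cdh19, Cdh20, Cdh22), 4 of 4 delta-1 protocadherins (Pcdh1, Pcdh7, Pcdh9, Pcdh11x) and 5 of 5 delta-2 protocadherins (Pcdh8, Pcdh10, Pcdh17, Pcdh18, Pcdh19) were counted. The others counted were Cdh13, Pcdh15 and Pcdh20. Of the clustered genes, 9 of 22 Pcdhb genes (7, 9, 13, 14, 17, 19, 20, 21 and 22), 2 of 22 Pcdhg genes (Pcdhga12 and Pcdhgb4) and 0 of 14 Pcdha genes were counted. The alpha and gamma genes share constant 3′ exons: over the last 1000 bases of the transcript, a median of 100% of positions lay in exons of another gene on the same strand for both arrays, against 0% for the beta genes. For Pcdhga12 and Pcdhgb4 this share was 100%, and for Pcdhb21 it was 45.5%. It was 0% for the other 33 members. Only uniquely mapped reads assigned to a gene were counted, so the values of Pcdhga12, Pcdhgb4 and Pcdhb21 are uncertain. The strand setting of the counting is not given in the sources used here.

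Members that were called in a comparison of regions, Pcdh7 and Pcdh10, are introduced with their promoters. Pcdh7 is a delta-1 protocadherin on chromosome 5 (GRCm38, 57717967 to 58133230, plus strand), and Pcdh10 is a delta-2 protocadherin on chromosome 3 (45378398 to 45435623, plus strand) known for a role in axon growth through the striatum. Each sequence runs from 250 bases before to 50 bases after the RefSeq start (GRCm38.p6), at chr5:57717831-57718130 and chr3:45378148-45378447. They are shown because both genes were higher in PFC than in NAc of stressed mice, and capitals mark each CG dinucleotide, the site of DNA methylation, which reads the same on both strands.
Pcdh7: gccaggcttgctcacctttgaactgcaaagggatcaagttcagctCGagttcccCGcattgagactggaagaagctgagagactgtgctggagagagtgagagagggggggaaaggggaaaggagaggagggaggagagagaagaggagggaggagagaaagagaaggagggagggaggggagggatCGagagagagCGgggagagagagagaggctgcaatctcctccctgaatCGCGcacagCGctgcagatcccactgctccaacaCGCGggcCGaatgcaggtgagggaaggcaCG
Pcdh10: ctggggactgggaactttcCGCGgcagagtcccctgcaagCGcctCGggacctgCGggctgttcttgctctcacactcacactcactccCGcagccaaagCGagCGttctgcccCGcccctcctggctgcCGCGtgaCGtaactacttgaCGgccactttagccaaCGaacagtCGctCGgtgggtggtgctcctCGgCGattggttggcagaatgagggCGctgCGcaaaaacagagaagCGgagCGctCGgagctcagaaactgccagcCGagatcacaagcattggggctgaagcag
The Pcdh7 window holds 11 CG and the Pcdh10 window holds 24. Among 32851 windows of this length in the RefSeq table the median was 7, with at least 11 in 41.4% and at least 24 in 20.0%. A window was at hand for 17 members. With the window of most CG taken for each gene, their CG number ran from 2 to 38 with a median of 18. The median over all windows took no such maximum, so these 2 medians are not comparable.

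The depth of the libraries lay between 945286 and 4857359 counts, and the median was lower in the PFC groups (CTR 2398072, mCRS 1966931) than in the NAc groups (CTR 2884276.5, mCRS 2615250.5). The tissue labels were compared with marker lists: all 9 striatal projection neuron markers were called lower in PFC than in NAc in CTR and in mCRS mice, and 7 of 8 and 6 of 6 cortical excitatory neuron markers tested were called higher. The NAc CTR library 7 stood apart, with striatal markers summing to 510.5 counts per 1000000 (CPM) against 2719 to 8219 in 30 other NAc libraries, and with Avp and Oxt, hypothalamic neuropeptides, summing to 2369 against at most 784.4. In the NAc mCRS library 10, Ttr, made by the choroid plexus, was at 21440 CPM against at most 319.6. Counts for under 75% of the listed genes were found in 4 libraries, PFC mCRS 3 and 12, NAc CTR 2 and NAc mCRS 6. Results were recomputed without these libraries, in 2 separate fits.

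The members were unequally detected. Cdh11, Cdh13, Pcdh7, Pcdh9, Pcdh10, Pcdh17 and Pcdh19 had a count in all 62 libraries, and the delta-1 members in 61 or 62. The beta members had a count in 23 (Pcdhb13) to 39 (Pcdhb7 and Pcdhb17) libraries and Pcdhgb4 in 19. Libraries held counts for a median of 75% of the members for CTR and 69.4% for mCRS in the PFC, and for 83.3% and 80.6% in the NAc, in the same order as the median totals. Because library depth differs between the groups, these shares were not compared further.

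**Figure D1:**
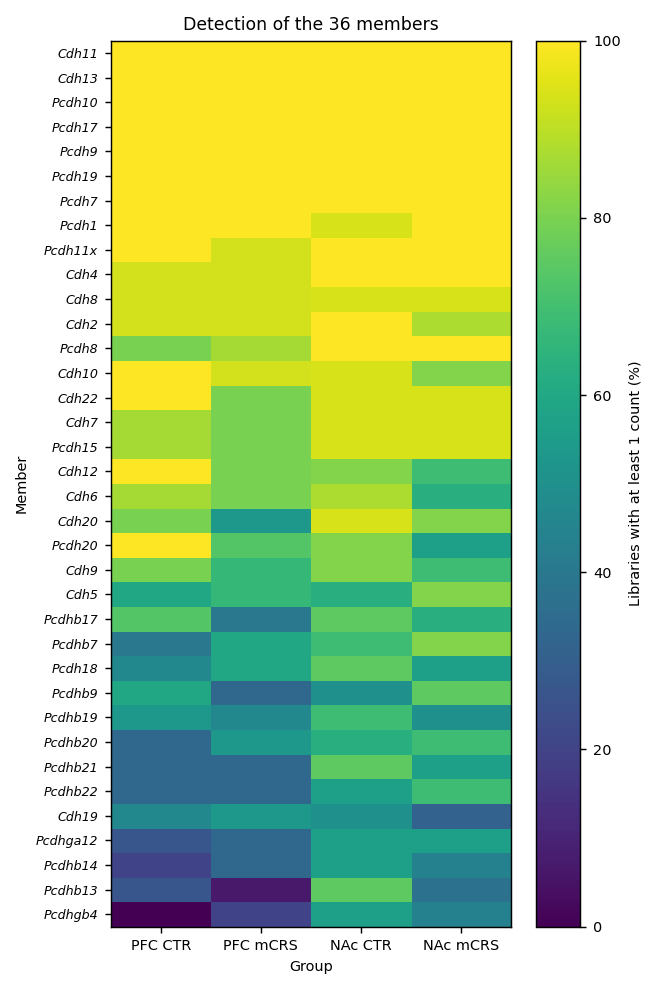
Percent of libraries with at least 1 count (color, 0 to 100%) for each of the 36 members (rows) in the 4 groups (columns; 15, 15, 16 and 16 libraries). The 7 members at the top had a count in every library, and Pcdhgb4 at the bottom had none in PFC CTR.

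The first comparison was PFC against NAc in CTR mice, fitted with edgeR's quasi-likelihood test over 9932 genes. Of 24 members that passed the filter on low counts, 0 had an FDR below 0.05, against 6.32% of all genes tested. DESeq2 called 0 members too. An unadjusted p below 0.05 was found for 3 members, against 15.0% of all genes: Cdh11 was on the PFC side, and Cdh4 and Pcdh15 were on the NAc side. Log2 fold changes were above 0 for 12 of the 24 members with a median of 0.05, and over all genes the median was -0.02. The median size was 0.55 for members and 0.39 for all genes, while the 95% intervals of members had a median width of 2.41 on the log2 scale, larger than this median size.

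Cdh11, a type II cadherin first described in bone-forming cells (chromosome 8, 102632095 to 102785642, minus strand), had in CTR mice a lowest, median and highest level of 17.2, 94.6 and 260.8 CPM in PFC and 2.87, 70.0 and 101.4 CPM in NAc. The groups overlapped, with 7 of 15 PFC libraries above the highest NAc library. The log2 fold change was 0.82 ± 0.34 (SE), with p = 0.0188 and FDR = 0.179 in edgeR's test. Cdh4, the type I cadherin also called R-cadherin (chromosome 2, 179442431 to 179899373, plus strand), had 0, 37.3 and 105.2 CPM in PFC and 33.0, 63.5 and 155.5 CPM in NAc. A single PFC library lay above the NAc median. Its log2 fold change was -1.01 ± 0.46, with p = 0.0308 and FDR = 0.247. Pcdh15, known from the tip links of hair cells, had 0, 3.70 and 59.9 CPM in PFC and 0, 26.1 and 246.9 CPM in NAc, with a log2 fold change of -1.64 ± 0.74 and FDR = 0.253.

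Pcdh7 and Pcdh10 were named after their values were seen, as were Cdh11, Cdh4 and Pcdh15 here. In CTR mice Pcdh7 had 165.9, 233.9 and 673.3 CPM in PFC and 73.0, 189.6 and 407.0 CPM in NAc. Its log2 fold change was 0.42, with a 95% interval from -0.03 to 0.87 and FDR = 0.389. Pcdh10 had 109.3, 233.4 and 395.0 CPM in PFC and 102.0, 202.7 and 398.1 CPM in NAc, and its log2 fold change was 0.27 (interval -0.12 to 0.66, FDR = 0.613). Neither was called in this comparison, where 14 of 15 PFC libraries lay above the NAc median for Pcdh7 and 10 of 15 for Pcdh10.

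In stressed mice, PFC against NAc was tested over 9452 genes and 22 members, and 2 members were called, both higher in PFC, against 4.23% of all genes called in that direction. Pcdh7 was 2.14-fold higher in PFC, with a 95% interval of 1.56 to 2.93. Its levels were 155.7, 322.9 and 450.0 CPM (lowest, median and highest) in PFC and 12.9, 144.4 and 287.2 CPM in NAc. All 15 PFC libraries lay above the NAc median, 10 of them above the highest NAc library, and all 16 NAc libraries lay below the PFC median. The log2 fold change was 1.10 ± 0.23 (SE, edgeR FDR = 0.000574).

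Pcdh10 was 1.71-fold higher in PFC of stressed mice (interval 1.29 to 2.26), at 128.3, 314.8 and 495.2 CPM in PFC and 62.4, 182.4 and 358.5 CPM in NAc. In PFC, 13 of 15 libraries lay above the NAc median and 5 above the highest NAc library. The log2 fold change was 0.77 ± 0.20, with an edgeR FDR of 0.00902. Without NAc mCRS library 10 the log2 fold changes of Pcdh7 and Pcdh10 were 1.10 and 0.76 and both were still called, and Cdh11 was called in addition (log2 fold change 1.29, edgeR FDR = 0.0231). Without the libraries of low detection the same 3 members were called, with Cdh11 at 1.32 (edgeR FDR = 0.0224).

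**Figure D2:**
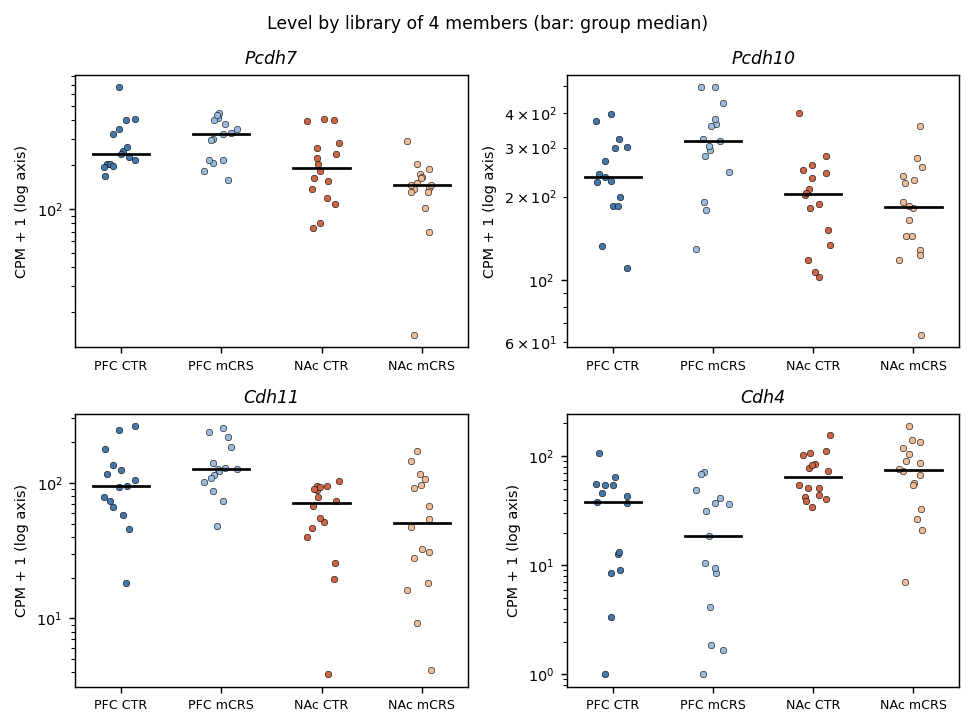
Level of Pcdh7, Pcdh10, Cdh11 and Cdh4 in each library (points; CPM + 1 on a log axis) in the 4 groups, with the group median as a bar. In stressed mice the Pcdh7 medians were 322.9 CPM in PFC and 144.4 CPM in NAc, and 10 of 15 PFC libraries lay above every NAc library.

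Other members lay near the threshold in stressed mice. An unadjusted p below 0.05 was found for 5 of the 22 members, against 14.8% of all genes. Pcdh9, a delta-1 protocadherin, had a log2 fold change of 0.70 ± 0.23 (edgeR FDR = 0.0571), Cdh11 of 1.11 ± 0.37 (FDR = 0.0625) and Cdh4 of -1.64 ± 0.55 (FDR = 0.0649). DESeq2 called all 3 as well as Pcdh7 and Pcdh10, which makes 5 of 22 members (4 without an adjusted p), against 8.15% of all genes. The median log2 fold change of the members was 0.10, against -0.03 over all genes.

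The regional comparisons in CTR and mCRS mice share no libraries. Of 20 members tested in both, 7 were on the PFC side in both and 7 on the NAc side in both. The side was the same for Cdh11, Cdh4, Pcdh7 and Pcdh10, and different for Pcdh9, which had a log2 fold change of -0.11 in CTR and 0.70 in mCRS mice. It was also different for Pcdh15, at -1.64 in CTR and 0.10 in mCRS mice (interval in mCRS mice -1.42 to 1.61). With all 62 libraries and treatment as a term, a fit added after the values were seen, 3 of 34 members were called higher in PFC and 1 lower, against 6.61% and 4.41% of all 11025 genes. These were Pcdh7 (log2 fold change 0.76, edgeR FDR = 0.000426), Cdh11 (0.96, FDR = 0.00435), Cdh4 (-1.33, FDR = 0.00561) and Pcdh10 (0.51, FDR = 0.00741). This fit contains the stressed libraries above and is not independent of them.

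**Figure D3:**
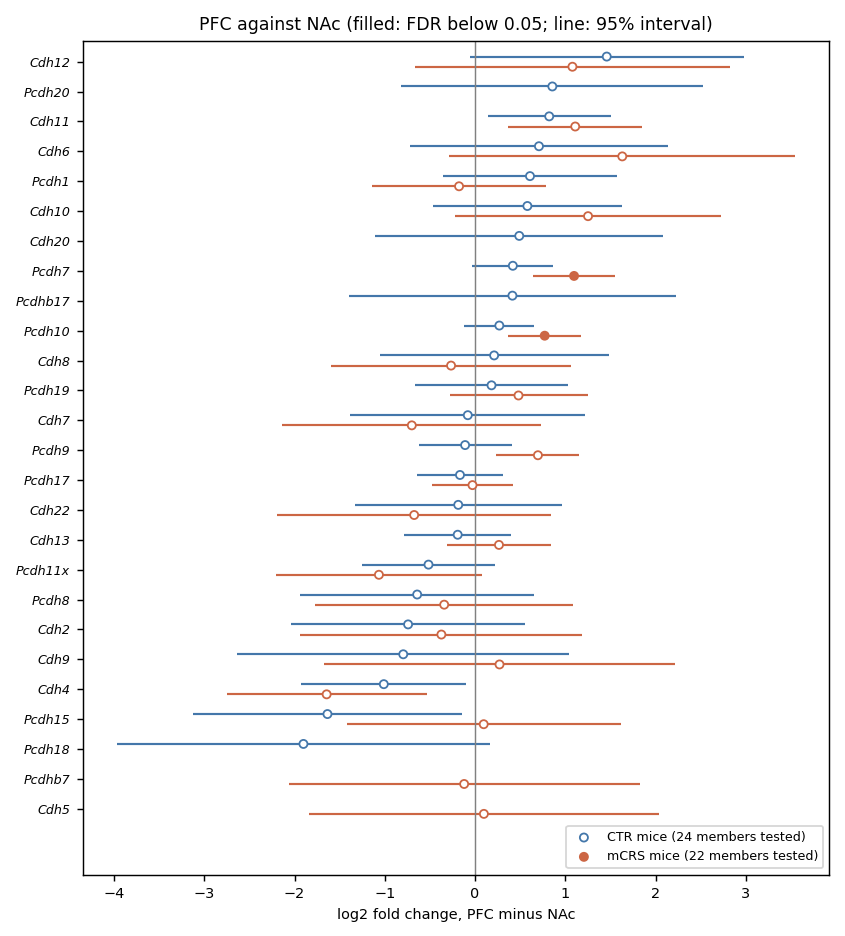
Log2 fold change of PFC minus NAc (x axis) for each member tested (rows), in CTR (blue, 24 members) and mCRS mice (orange, 22 members), with 95% intervals as lines and filled points for an FDR below 0.05. The filled points are Pcdh7 at 1.10 and Pcdh10 at 0.77, both in mCRS mice.

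In bulk tissue, fewer cells of a type and less RNA per cell cannot be told apart. The regions differed in markers of several cell types, and the part of these differences in the regional results was not tested. The 8 cortical excitatory neuron markers summed to 1313 to 2858 CPM per library in PFC mCRS and 336.1 to 1103 in NAc mCRS, and the 9 striatal projection neuron markers to 339.9 to 1261 and 2719 to 7209. The 6 oligodendrocyte markers summed to 2470 to 6854 CPM in PFC mCRS and 4992 to 8241 in NAc mCRS, and the 3 markers of oligodendrocyte precursors to 14.9 to 233.1 and 49.1 to 566.5. No marker that was counted was at 0 over a whole group.

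The remaining classical cadherins were not called between regions. Cdh2, or N-cadherin, the main type I cadherin of neurons, had medians of 13.2 CPM in PFC and 20.4 CPM in NAc of CTR mice, and its log2 fold change had an interval of -2.04 to 0.56. Cdh12, a type II cadherin of neurons, had the highest log2 fold change of the members in CTR mice, 1.46 ± 0.76 (edgeR FDR = 0.366), with medians of 37.4 CPM in PFC and 2.90 CPM in NAc. Its count was above 0 in 15 of 15 PFC and 13 of 16 NAc libraries. For Cdh6, Cdh7, Cdh8, Cdh9, Cdh10, Cdh20 and Cdh22 the log2 fold changes in CTR mice ran from -0.80 (Cdh9) to 0.71 (Cdh6). Cdh13, a cadherin anchored by a lipid and lacking a cytoplasmic tail, had medians of 109.3 CPM in PFC and 129.3 CPM in NAc, with an interval of -0.78 to 0.40.

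Among the delta protocadherins, Pcdh17, which is known from synapses of the corticostriatal circuit, had the narrow interval of -0.65 to 0.31 in CTR and -0.48 to 0.42 in mCRS mice. Pcdh17 medians were 138.1 CPM in PFC and 188.6 CPM in NAc of CTR mice. Pcdh19, an X-linked gene mutated in an epilepsy of females, had medians of 79.1 and 54.9 CPM (log2 fold change 0.18, interval -0.67 to 1.03). Pcdh18 had log2 fold change -1.90, but with a wide interval of -3.97 to 0.17, and its count was 0 in 8 of 15 PFC and 4 of 16 NAc libraries. Pcdh8, the activity-regulated protocadherin also called arcadlin, had medians of 14.3 and 43.7 CPM in PFC and NAc of CTR mice and an interval of -1.94 to 0.66.

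The clustered members, in neighboring arrays on chromosome 18, were sparse. In each comparison of 2 groups between 1 and 5 of the 9 beta members and 0 of the 2 gamma members passed the filter, and Pcdhb13, Pcdhb14, Pcdhb19, Pcdhb21, Pcdhga12, Pcdhgb4 and the type II cadherin Cdh19 passed it in none of the 4. Pcdhgb4 had 0 counts in all 15 PFC CTR libraries and 522 counts in NAc CTR, where 9 of 16 libraries had any, up to 109 in a library. With 3 counts set in place of 0 for the whole PFC CTR group, the pooled level in CTR mice was 134.2-fold higher in NAc than in PFC. No molecular identifiers were used, so the counts are of reads and not of molecules. This ratio is therefore not a lower bound, and it leaves out the spread between libraries. NAc CTR library 7, which stood apart in its markers, held 87 of the 522 counts. Without the filter, edgeR called Pcdhgb4 in CTR mice (FDR = 0.000279), where 2.28% of all genes were called lower in PFC. Pcdhgb4 was chosen here after its values were seen. In stressed mice it had 63 counts in 3 of 15 PFC libraries and 62 counts in 7 of 16 NAc libraries, and the regions did not stand apart (edgeR without the filter, FDR = 0.984).

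Pcdhga12 had 32 counts in 4 of 15 PFC CTR libraries and 7 counts in 5 of 15 PFC mCRS libraries, against 319 and 215 counts in NAc CTR and NAc mCRS, each in 9 of 16 libraries. Without the filter edgeR called it lower in PFC of mCRS mice (FDR = 0.0238), where 2.36% of all genes were called lower in PFC, and not in CTR mice (FDR = 0.213). Pcdhga12 was also chosen after its values were seen. Of the beta members, Pcdhb17 was tested between regions in CTR mice (log2 fold change 0.41, interval -1.40 to 2.22) and Pcdhb7 in mCRS mice (-0.12, interval -2.06 to 1.82). A single library often carried much of a group's counts: for Pcdhb13 in PFC mCRS, 1 library held all 84 counts, and for Pcdhb22 in PFC CTR 73.1% of 193 counts came from 1 library.

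**Figure D4:**
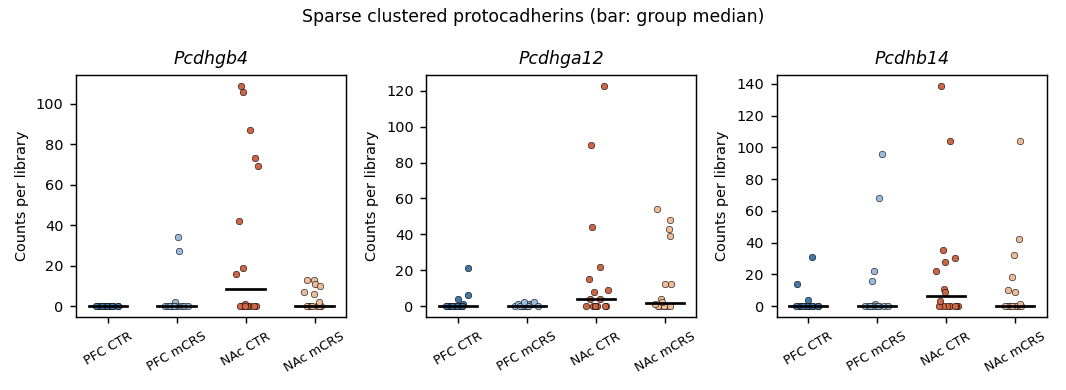
Counts per library (points) of Pcdhgb4, Pcdhga12 and Pcdhb14 in the 4 groups, with group medians as bars. All 15 PFC CTR libraries were at 0 for Pcdhgb4, while NAc CTR libraries reached 109 counts.

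The effect of mCRS on the PFC was tested over 8916 genes and 21 members. No member was called, as for all genes (0 of 8916, or 0%), and DESeq2 called 0 members, giving no adjusted p for 19 of the 21. An unadjusted p below 0.05 was found for 1 member, against 3.50% of all genes. This was Pcdh10, whose median was 233.4 CPM in CTR and 314.8 CPM in mCRS, with 12 of 15 mCRS libraries above the CTR median and 3 above the highest CTR library. Its log2 fold change was 0.40 ± 0.19 (SE, p = 0.0463, edgeR FDR = 0.9997). Pcdh9 had 30.2, 186.2 and 282.6 CPM in CTR and 72.5, 210.4 and 520.6 CPM in mCRS, with a log2 fold change of 0.49 ± 0.25 and p = 0.0577 in edgeR's test (FDR = 0.9997). Pcdh11x, an X-linked delta-1 protocadherin, had 2.67, 58.1 and 109.6 CPM in CTR and 0, 30.5 and 65.5 CPM in mCRS, with a log2 fold change of -0.85 ± 0.58 (edgeR p = 0.144, FDR = 0.9997). The groups overlapped for all 3.

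In the NAc 28 members were tested among 10141 genes, and none was called, against 0.00986% of all genes. DESeq2 called 0 members. An unadjusted p below 0.05 was found for 1 member, against 2.04% of all genes. Pcdh7 had 73.0, 189.6 and 407.0 CPM in CTR and 12.9, 144.4 and 287.2 CPM in mCRS. Only 2 of 16 mCRS libraries lay above the CTR median, although 16 of 16 lay within or below the CTR range. The log2 fold change was -0.56 ± 0.25, with p = 0.0270 and an FDR of 1 in edgeR's test. Cdh9, a type II cadherin known from hippocampal mossy fiber synapses, had medians of 4.94 CPM in CTR and 3.50 CPM in mCRS, with log2 fold change -1.48 ± 0.90 (edgeR p = 0.106). Pcdh9 had medians of 185.1 and 144.8 CPM and a log2 fold change of -0.33 ± 0.23 (edgeR p = 0.166). Without NAc CTR library 7 and NAc mCRS library 10 the log2 fold change of Pcdh7 was -0.59 (edgeR FDR = 0.9999).

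Over the members tested, the median log2 fold change with mCRS was -0.04 in PFC, where 10 of 21 were above 0, and -0.09 in NAc, where 12 of 28 were above 0. Over all genes these medians were -0.01 and -0.01. The precision differed by member. For Pcdh7 in PFC the interval was -0.26 to 0.53, for Pcdh10 in NAc -0.51 to 0.28, and for Pcdh17 -0.53 to 0.46 in PFC and -0.61 to 0.25 in NAc. For Cdh2 it was -1.16 to 2.01 in PFC, an interval that holds changes of the size seen between regions for Pcdh7 in either direction.

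**Figure D5:**
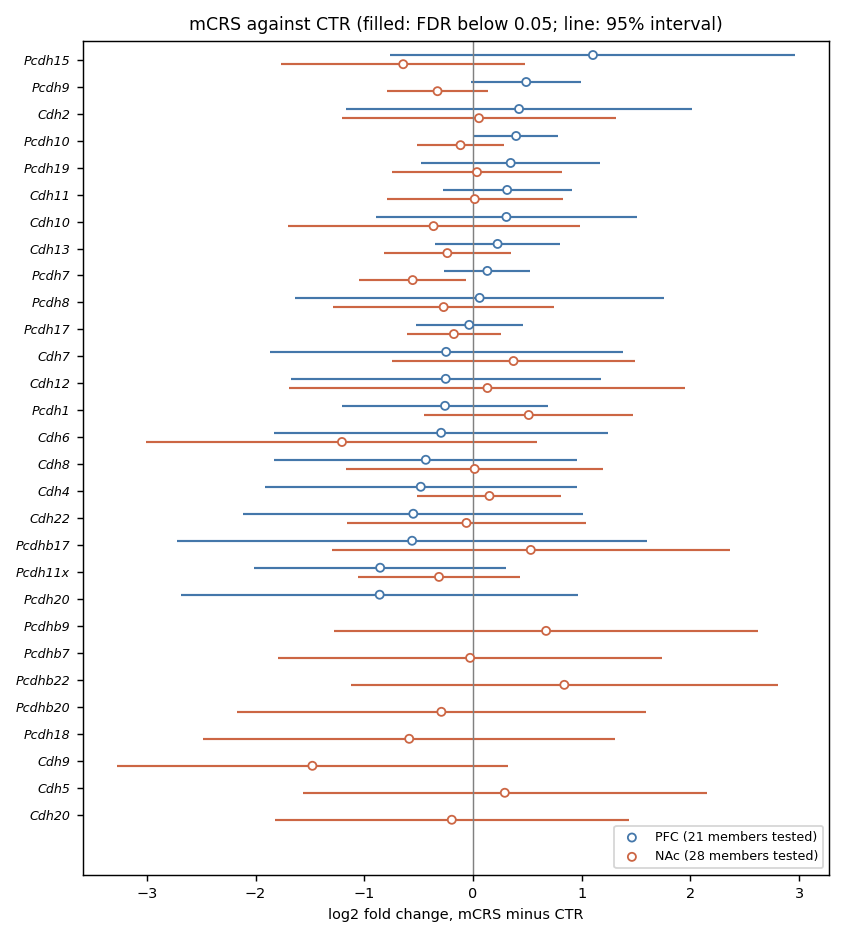
Log2 fold change of mCRS minus CTR (x axis) for each member tested (rows), in PFC (blue, 21 members) and NAc (orange, 28 members), with 95% intervals as lines. No point is filled, as 0 members had an FDR below 0.05, and the intervals of Pcdh10 in PFC and Pcdh7 in NAc are the only ones that leave out 0.

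The difference between the mCRS effects in PFC and NAc was tested as the interaction over all 62 libraries, 11025 genes and 34 members. No member was called (0.00907% of all genes), by edgeR or by DESeq2, and 3 had an unadjusted p below 0.05, against 3.09% of all genes. Pcdhgb4 had a log2 difference of 7.56 ± 1.70 (edgeR p = 2.95e-05, FDR = 0.0812), a fitted value that depends on the prior count because PFC CTR is at 0. DESeq2 gave it an adjusted p of 0.829, and it passed the filter in 50 of the 62 fits that left out 1 library. Pcdh9 had a difference of 0.80 ± 0.35 (edgeR p = 0.0241, FDR = 1), from 0.49 in PFC and -0.33 in NAc. Pcdh7 had a difference of 0.68 ± 0.33 (edgeR p = 0.0409, FDR = 1), from 0.13 in PFC and -0.56 in NAc. Pcdh10 had a difference of 0.50 ± 0.28 (edgeR p = 0.0793), from 0.40 in PFC and -0.12 in NAc. The interaction compares the same 4 groups as the regional contrasts, and neither Pcdh7 nor Pcdh10 was called in it. Their call between regions in stressed but not in CTR mice is therefore not shown to be a difference between the mice.

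Genes that work with the members were taken from fixed lists. Of 9 WAVE complex genes, all were counted and tested in every comparison. Cyfip2, a subunit that binds the FMRP protein, was called higher in PFC of CTR mice (log2 fold change 0.61 ± 0.16, edgeR FDR = 0.00844), and had 0.24 in mCRS mice (FDR = 0.775). Its medians in PFC and NAc were 571.5 and 358.3 CPM in CTR mice, and 592.1 and 388.9 CPM in mCRS mice. The highest NAc mCRS library was at 2353 CPM, and its part in the smaller fold change in mCRS mice was not tested. The interaction of Cyfip2 was -0.36 ± 0.30 (edgeR p = 0.228) and was not called. A smaller regional difference in mCRS mice is therefore not shown. Wasf1, the WAVE1 protein itself, was called higher in PFC of mCRS mice (0.84 ± 0.26, FDR = 0.0309). Wasf1 had 0.52 in CTR mice (edgeR FDR = 0.0902). Wasf3, the WAVE3 protein, had -1.07 in CTR mice (FDR = 0.123) and -1.23 in mCRS mice (FDR = 0.221). Adam10, a protease that sheds N-cadherin and gamma protocadherins, was called higher in PFC of mCRS mice at 1.70 ± 0.38 (edgeR FDR = 0.00124), with medians of 159.3 CPM in PFC and 50.7 CPM in NAc. In CTR mice its log2 fold change was 0.96 (FDR = 0.144). Afdn and Vcl, adaptors between adhesion sites and actin, were not called.

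Of 12 other genes of the cadherin superfamily 8 were counted. Clstn1, a calsyntenin that joins vesicles to kinesin, was called higher in PFC of CTR mice (log2 fold change 0.53 ± 0.13, edgeR FDR = 0.00621), with medians of 777.1 CPM in PFC and 520.5 CPM in NAc, and in mCRS mice it had 0.42 (FDR = 0.106). Of 8 catenins 7 were counted and 0 were called in any comparison. Over all genes, 6.32% were called between regions in CTR mice and 596 of 9452 in mCRS mice. Ctnnb1, or beta-catenin, which joins classical cadherins to alpha-catenin, had -0.43 in CTR mice (edgeR FDR = 0.154) and 0.22 in mCRS mice (FDR = 0.710), with an interaction of 0.65 (edgeR p = 0.0123, FDR = 1). All 9 regulators of the clustered genes (CTCF, cohesin subunits and silencing factors) were tested and 0 were called. Both lists are too short to set 0 calls against these shares. Between regions in CTR mice, 2 of the 9 regulators had an unadjusted edgeR p below 0.05, against 15.0% of all genes. These were Rad21, on the PFC side, and Stag1, on the NAc side. Rad21, a cohesin subunit, had 0.78 in CTR mice (edgeR FDR = 0.324) and 0.37 in mCRS mice (FDR = 0.669). Stag1, a cohesin subunit, had a log2 fold change between regions of -0.97 in CTR mice (edgeR FDR = 0.219) and 0.29 in mCRS mice (FDR = 0.864), with an interaction of 1.25 (edgeR p = 0.0335, FDR = 1). No gene of these lists was called between mCRS and CTR in PFC or NAc, against 0% and 0.00986% of all genes.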

How the data were processed

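Total RNA of PFC and NAc was sequenced by BRB-seq in 62 libraries. The authors mapped reads with STAR to GRCm38 and counted uniquely mapped reads per gene with htseq (HTSeq 0.9.1 in the submitters' processing notes); these counts were deposited without normalization, as whole numbers for 11121 genes. PFC samples of poor quality had been removed by the authors. No molecular identifiers were used, so counts are of reads, and the pooled ratio given for Pcdhgb4 in CTR mice is not a lower bound. Symbols were found for 11120 Ensembl identifiers, and coordinates and exons are from GENCODE (GRCm38).

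Counts were tested with edgeR 4.0.16 (R 4.3.3; TMM normalization, default filter by group, two-sided quasi-likelihood test), each comparison fitted to its own groups, with Benjamini-Hochberg FDR over all genes tested and calls at an FDR below 0.05. CPM are counts per 1000000 of the library total after TMM scaling over all 62 libraries. SE are derived from the F statistic, with 95% intervals. Libraries were taken as independent. The tests were also run on simulated data, and the outcome is not reported here. DESeq2 1.42.0, other scalings and filters, all groups in 1 fit, depth as a covariate, thinned counts, a robust spread, the order of the numbering, the replicate number and leaving out each library were alternatives. Fits without libraries of low detection or deviating markers and the fit over both treatments were added after values were seen.

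The members and lists were chosen with earlier results of these data known. The rule for named genes took members called between regions in CTR mice, for the other comparisons those called or the 3 of smallest p, and up to 3 partner genes a list. In the regional comparisons, members were named after their values were seen.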

Additional observations from a re-analysis of the deposited data

How the results depend on the processing

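Calls over all genes are given in parentheses. In CTR mice 0 members were called between regions (628 of 9932). Without a filter (695 of 11121) or with all 4 groups in 1 fit (600 of 11025), 1 was called, Pcdhgb4. Between regions in mCRS mice 2 members were called (596 of 9452). DESeq2 called 5 (770 of 9452), the fit of all 4 groups 4 (715 of 11025), and edgeR without a filter 3, with Pcdhga12 added (672 of 11121). Leaving out each library in turn gave 2 to 4 members. The fit over both treatments called 4 (1215 of 11025). Pcdh7 and Pcdh10 were called in mCRS mice in all 31 of these leave-one-out fits and under the other alternatives run. Leaving out a library gave 0 calls for CTR mice and for mCRS against CTR in PFC and in NAc. For the interaction it gave 0 to 1, with Pcdhgb4 called without PFC mCRS library 2 (edgeR FDR = 0.0427) or 8 (FDR = 0.0492), while Pcdhgb4 did not pass the filter in 12 of the 62 fits, each without 1 NAc library, nor without both NAc CTR library 7 and NAc mCRS library 10. The cause was not tested. Libraries of the same number did not vary together (r from -0.04 to 0.07 over all comparisons, and from -0.03 to 0.03 between regions). This cannot settle whether a number stands for a mouse, as the 2 tissues of a mouse need not vary together. The replicate block called 0, 3, 0, 0 and 0 members in CTR regions, mCRS regions, PFC, NAc and the interaction. Of all genes it called 610 of 9932, 588 of 9452, 1 of 8916, 0 of 10141 and 0 of 11025. It shifted the log2 median of all genes by up to -0.20, to -0.23 in mCRS regions. Under the alternatives run, 0 log2 fold changes reversed sign for Cdh11, Cdh4, Pcdh7 and Pcdh10 between regions in both treatments, Pcdh15 between regions in CTR and Pcdh9 in mCRS mice, Pcdh9, Pcdh10 and Pcdh11x with mCRS in PFC, Pcdh7, Pcdh9 and Cdh9 with mCRS in NAc, and Pcdhgb4, Pcdh7 and Pcdh9 in the interaction. Depth and spread limit the sparse members, whose intervals span several log2 units.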
